A study of Mus musculus with 8 samples.

Results

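Aldh1a1, Aldh1a7, Aldh1b1, Aldh2 and Aldh3a2 are aldehyde dehydrogenase genes of liver and make up 5 of the 20738 named genes on the array. They were chosen by gene symbol, and each was measured by a single feature (spot), numbered 9248, 22542, 24247, 424 and 21962 in that order. Liver RNA came from male mice of the outbred CD-1 stock. The treated mice ate 2500 ppm NaPB (sodium phenobarbital) in their food for 7 days, and the control mice 0 ppm for 7 days. Each diet had 4 one-colour Agilent arrays, and the comparison asks which of these transcripts differed between the diets. Whether each array stands for its own animal is not stated in the labels, nor is the age of the mice, so the p-values speak only to the spread among these arrays, which may be technical. In whole liver, fewer cells of a type and less RNA per cell cannot be told apart.

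Aldehyde dehydrogenases oxidize aldehydes to carboxylic acids with NAD+ or NADP+ as the electron acceptor. In liver they remove the acetaldehyde made from ethanol, turn retinaldehyde into retinoic acid, and clear fatty aldehydes and the reactive aldehydes of lipid peroxidation. The enzymes of the family lie in different compartments of the hepatocyte: Aldh1a1 and Aldh1a7 in the cytosol, Aldh2 and Aldh1b1 in mitochondria, and Aldh3a2, the fatty aldehyde dehydrogenase, in membranes of the endoplasmic reticulum.

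Values are the deposited intensities, whose 75th percentile lay between 0.952 and 0.974 on each array. NaPB replicate 2 held only 3443 distinct values, against 62756 to 62839 on each of the other arrays. The reason for this was not tested. The floor of an array was set at 2 times its lowest intensity. None of the 5 genes was at the floor on any array; the value closest to it, of Aldh1b1, was 16.7 times the floor. NaPB replicate 4 and control replicate 1 stood apart, with the most extreme scores, of opposite sign, on the first principal component. The ratio of the 99th to the 75th percentile was 62.3 on NaPB replicate 4, between 107 and 125 on NaPB replicates 1 to 3, and between 65.8 and 124 on the control arrays. Cyp2b10, a P450 known to be strongly induced by phenobarbital in mouse, had intensities of 521, 491, 430 and 77.7 on NaPB replicates 1 to 4, against 3.72, 0.863, 2.98 and 5.22 on control replicates 1 to 4. Every NaPB array was thus above every control array for this gene, with replicate 4 the lowest of the NaPB arrays. The 5 aldehyde dehydrogenase genes also had their lowest NaPB value on replicate 4, and values without it are given beside results of these genes and of the pathway lists.

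Aldh1a7 and Aldh1a1 lie next to each other on mouse chromosome 19, on opposite strands, and are near-identical copies of one ancestral gene. The 250 bases before their annotated starts are shown because these 2 genes differed in their response. Sequences are from RefSeq (GRCm38.p6), read 5′ to 3′ on the strand of each gene, and capitals mark the longest stretch that both windows share. The Aldh1a7 window is chr19:20727557-20727806 on the minus strand, and the Aldh1a1 window is chr19:20601718-20601967 on the plus strand.
Aldh1a7: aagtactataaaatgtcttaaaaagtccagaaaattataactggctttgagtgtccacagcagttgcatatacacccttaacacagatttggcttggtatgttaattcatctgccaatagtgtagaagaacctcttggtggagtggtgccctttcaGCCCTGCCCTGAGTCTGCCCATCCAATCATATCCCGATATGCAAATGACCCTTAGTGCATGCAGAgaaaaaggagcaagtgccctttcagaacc
Aldh1a1: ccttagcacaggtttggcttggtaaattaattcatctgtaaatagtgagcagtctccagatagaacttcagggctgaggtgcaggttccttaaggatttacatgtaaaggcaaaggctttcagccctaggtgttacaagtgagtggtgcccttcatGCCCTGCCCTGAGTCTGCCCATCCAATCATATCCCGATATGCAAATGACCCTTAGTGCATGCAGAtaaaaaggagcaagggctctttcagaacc

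The shared stretch is 65 bases long and runs from 94 to 30 bases before the start in both genes. Aligned on their starts without gaps, the windows hold the same base at 94 of the last 100 positions and at 35 of the first 150. Stretches that both windows hold at different distances from the start, such as tttggcttggta and ttaattcatctg, are not counted in this way. A further annotated start of Aldh1a1, with the window chr19:20492333-20492582, shares no stretch longer than 8 bases with Aldh1a7. Motifs were searched on both strands of these 250-base windows, and 4 of the 5 genes had a window in the table used (Aldh1a7, Aldh1a1, Aldh1b1 and Aldh3a2). CCAAT, the letters of the CCAAT box, stood 72 to 68 bases before the start in both Aldh1a7 and Aldh1a1, a second time in Aldh1a7 at 137 to 133 bases, and in Aldh3a2 at 13 to 9 bases; 33.9% of all 32851 windows hold it. GTTAAT, part of the recognition sequence of the hepatocyte factor HNF1, occurred in Aldh1a7 alone among them, where 6.43% of all windows hold it. TATAAA, the TATA box, also occurred in Aldh1a7 alone among them, and 12.4% of all windows hold it. It stood 244 to 239 bases before the start, far from where a TATA box usually lies. Only exact letters were searched, so near forms were not counted. Directly after the shared stretch, Aldh1a1 reads taaaaa where Aldh1a7 reads gaaaaa. The nuclear receptor hexamers AGGTCA and AGTTCA and the antioxidant response core TGACNNNGC were not found in these windows, and are held by 14.0%, 11.8% and 10.2% of all windows. The Aldh3a2 window had 61.2% G and C and 18 CpG dinucleotides, against 43.2% and 1 for Aldh1a7 and a median of 52.4% and 6 over all windows.

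Of the 5 genes, Aldh1a7 alone passed the test over all genes, and it was higher on the NaPB diet. The test was limma on log2 intensities with Benjamini-Hochberg adjustment over 20738 genes, and a gene counted as called where its adjusted p was below 0.05. Over all genes 1.01% were called (0.391% higher and 0.617% lower), which is the background for the 1 called gene of 5 (1 higher, 0 lower). The median log2 fold change of the 5 genes was 0.23, against 0.01 over all genes. In order of their change, Aldh1a7 was followed by Aldh1a1 and Aldh1b1 above 0, and by Aldh3a2 and Aldh2 below 0.

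Aldh1a7 encodes a cytosolic aldehyde dehydrogenase, listed under the older symbol Aldh-pb, and its rat counterpart is known as a phenobarbital-inducible enzyme. Its intensity was 60.8, 54.2, 56.0 and 19.7 on NaPB replicates 1 to 4, against 13.4, 8.10, 10.1 and 9.78 on control replicates 1 to 4. The diets did not overlap, replicates 1 to 3 of the NaPB diet lay close together, and replicate 4 lay between them and the highest control array. It was the only one of the 5 genes without overlap; over all genes 7.04% had none, 2.72% with NaPB higher and 4.31% with NaPB lower. The geometric mean was 43.7 on the NaPB diet (log2 SD 0.77, n = 4) and 10.2 on the control diet (log2 SD 0.30, n = 4). This gave a 4.29-fold higher level, with a 95% confidence interval of 2.39-fold to 7.70-fold. The log2 fold change was 2.10 ± 0.38 (SE; adjusted p = 0.0321, limma), rank 132 of all genes by p and 48 by fold among the 81 genes called higher. An exact permutation test over the 70 assignments of the arrays gave p = 0.0286 (two-sided), the smallest it can give.

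The fold of Aldh1a7 moved less than its call. With each array left out in turn, its log2 fold change ran from 1.94 to 2.48. The adjusted p was 0.00305 without NaPB replicate 4 and 0.0494 without control replicate 1. It was above the threshold in the other 6 such fits, between 0.0923 (without control replicate 2) and 0.119 (without NaPB replicate 1). All fits with 1 array left out, passing or not, used 7 arrays.

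Aldh1a1 encodes the cytosolic retinaldehyde dehydrogenase of hepatocytes. Its intensity was 285, 303, 239 and 71.8 on NaPB replicates 1 to 4, against 124, 76.0, 124 and 102 on control replicates 1 to 4. NaPB replicates 1 to 3 were all above every control array, and NaPB replicate 4 was below every control array. The geometric mean was 196 on the NaPB diet (log2 SD 0.98, n = 4) and 105 on the control diet (log2 SD 0.33, n = 4), which put the log2 fold change at 0.91 ± 0.45 (SE), and it did not pass (adjusted p = 0.56, limma). The 95% confidence interval ran from −0.08 to 1.90 log2 units. Without NaPB replicate 4 the log2 fold change was 1.39 ± 0.27, or 2.62-fold, and passed (adjusted p = 0.0395, limma); in the other 7 fits with 1 array left out it did not. Probe sequences were not used here, so how far the features of Aldh1a1 and Aldh1a7 each detect the RNA of the other copy was not tested.

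**Figure D1:**
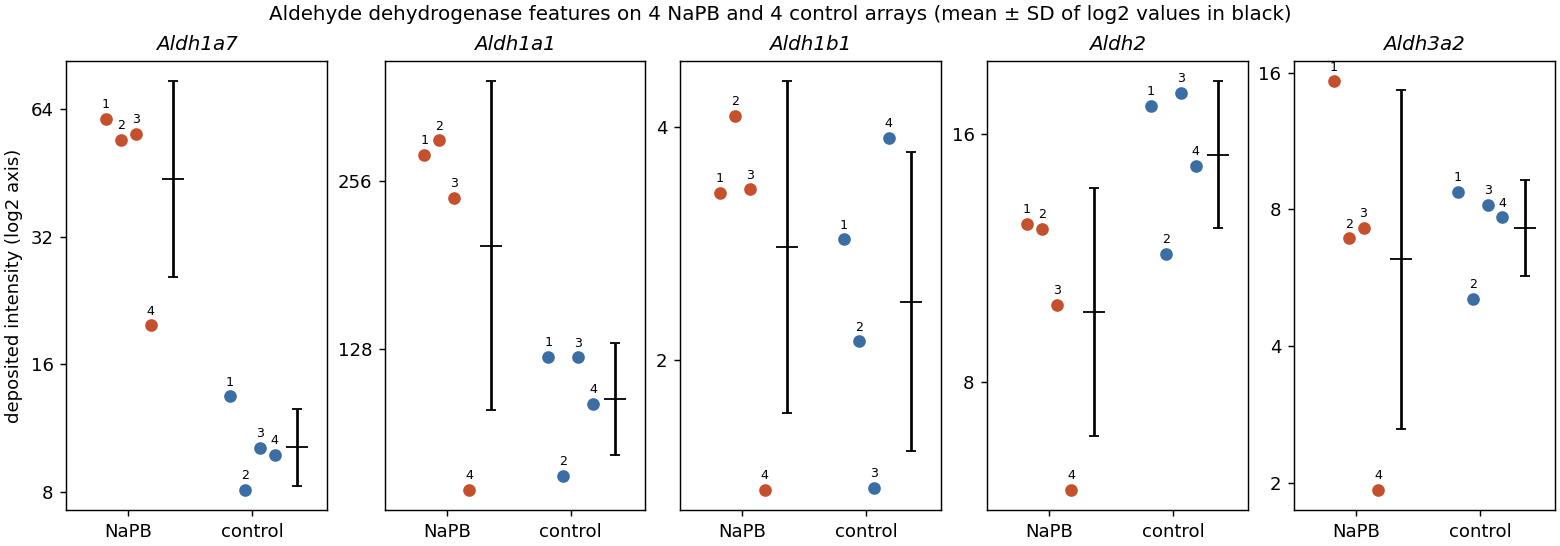
Deposited intensity (log2 axis) of the 5 genes on 4 NaPB arrays (left of each panel, orange) and 4 control arrays (right, blue), with replicate numbers above the points and the mean ± SD of the log2 values in black. For Aldh1a7 the NaPB arrays, from 19.7 to 60.8, lie above the control arrays, from 8.10 to 13.4, and in each panel NaPB replicate 4 is the lowest NaPB array.

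The mitochondrial enzymes did not pass the test. Aldh2 encodes the main mitochondrial enzyme that oxidizes acetaldehyde. Its intensity was 12.5, 12.3, 9.93 and 5.93 on NaPB replicates 1 to 4, against 17.3, 11.5, 17.9 and 14.6 on control replicates 1 to 4. The diets overlapped through control replicate 2, which lay below NaPB replicates 1 and 2 and was the lowest of the control arrays. The geometric mean was 9.74 on the NaPB diet (log2 SD 0.50, n = 4) and 15.1 on the control diet (log2 SD 0.30, n = 4). The log2 fold change was −0.63 ± 0.31 (SE; adjusted p = 0.566, limma), with a 95% confidence interval from −1.33 to 0.06, or from 2.51-fold lower to 1.04-fold higher. Without NaPB replicate 4 it was −0.39. Aldh2 stayed below 0 in each of the 20 alternative fits, from −0.77 to −0.33, and passed in none of them.

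Aldh1b1 encodes a further mitochondrial enzyme, which accepts acetaldehyde and retinaldehyde. Its intensity was 3.29, 4.13, 3.32 and 1.36 on NaPB replicates 1 to 4, against 2.87, 2.12, 1.37 and 3.87 on control replicates 1 to 4. The diets overlapped over nearly their whole range, with a 3.03-fold spread from the lowest to the highest NaPB array and a 2.82-fold spread in the control arrays. The geometric mean was 2.80 on the NaPB diet (log2 SD 0.71, n = 4) and 2.38 on the control diet (log2 SD 0.64, n = 4). The log2 fold change was 0.23 ± 0.42 (SE; adjusted p = 0.909, limma), with a 95% confidence interval from −0.70 to 1.17. Leaving out NaPB replicate 4 gave 0.58. The value was 0.05 without NaPB replicate 2, 0.47 without control replicate 4 and −0.03 without control replicate 3.

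Aldh3a2 encodes the microsomal enzyme that oxidizes long-chain fatty aldehydes, and its human counterpart is mutated in Sjögren-Larsson syndrome. Its intensity was 15.3, 6.91, 7.29 and 1.93 on NaPB replicates 1 to 4, against 8.75, 5.09, 8.17 and 7.68 on control replicates 1 to 4. NaPB replicate 1 was the highest of the 8 arrays and NaPB replicate 4 the lowest, a 7.93-fold spread within the diet, against 1.72-fold within the control arrays. The geometric mean was 6.21 on the NaPB diet (log2 SD 1.24, n = 4) and 7.27 on the control diet (log2 SD 0.35, n = 4). The log2 fold change was −0.23 ± 0.53 (SE; adjusted p = 0.933, limma), with a 95% confidence interval from −1.40 to 0.95. Its standard error was larger than that of 89.7% of all genes. Leaving out NaPB replicate 4 gave 0.33, and leaving out NaPB replicate 1 gave −0.66.

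**Figure D2:**
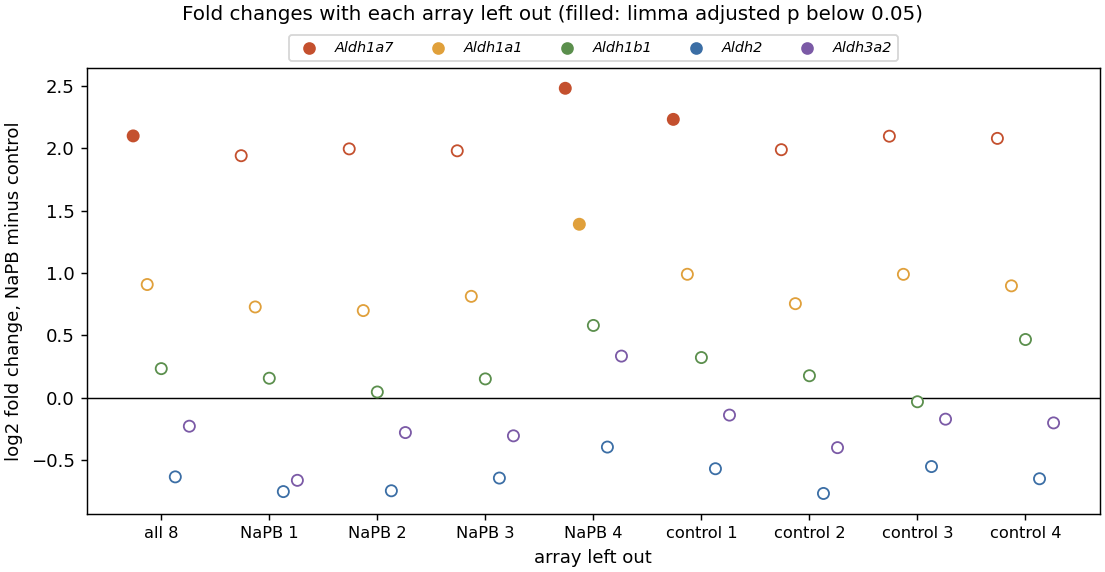
Log2 fold change (NaPB minus control) of the 5 genes with all 8 arrays and with each array left out, filled where the limma adjusted p was below 0.05. Aldh1a7 stays between 1.94 and 2.48, and Aldh1a1 is filled only without NaPB replicate 4.

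Whether the genes changed by different amounts was tested on the log2 ratio of 2 of them on the same array, which does not depend on the scaling of that array. The size of such a ratio compares different probes and has no meaning of its own, and only its change between the diets is read. All 10 pairs were compared by an exact permutation test over 70 assignments of the arrays (two-sided), whose smallest possible p is 0.0286. In 6 pairs the diets did not overlap, which gave that smallest p. Benjamini-Hochberg adjustment over the 10 pairs, of genes chosen with results known, gave 0.0476. That adjusted value lies below 0.05 only because several pairs share the smallest p. Pairs that share a gene are not independent, and several of them hold Aldh1a7, which did not overlap by itself. How often ratios of other genes did not overlap was not counted.

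The ratio of Aldh1a7 to Aldh1a1 was −2.23, −2.48, −2.09 and −1.86 log2 units on NaPB replicates 1 to 4, against −3.21, −3.23, −3.61 and −3.39 on control replicates 1 to 4. Aldh1a7 thus changed by 1.19 log2 units more than Aldh1a1 (exact permutation p = 0.0286, adjusted p = 0.0476), a 2.28-fold change of their ratio. This difference held on each NaPB array, and NaPB replicate 4 had the highest ratio.

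The ratio of Aldh1a1 to Aldh2 was 4.52, 4.62, 4.59 and 3.60 log2 units on NaPB replicates 1 to 4, against 2.84, 2.73, 2.79 and 2.80 on control replicates 1 to 4. The control arrays lay close together, and each NaPB array was above them, replicate 4 by the least. The difference was 1.54 log2 units (exact permutation p = 0.0286, adjusted p = 0.0476). For the ratio of Aldh1a7 to Aldh2 it was 2.73 log2 units, a 6.65-fold change of the ratio and the largest of the 10 pairs.

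Against the other members, Aldh1a7 changed by 2.33 log2 units more than Aldh3a2 and by 1.87 more than Aldh1b1, and Aldh1a1 by 1.14 more than Aldh3a2. The other 4 pairs overlapped between the diets, with differences from 0.41 to 0.87 log2 units and exact permutation p from 0.0857 to 0.40 (adjusted p from 0.122 to 0.40). Of these, Aldh3a2 and Aldh2 differed by 0.73 log2 units without NaPB replicate 4, with no overlap (exact permutation p = 0.0286, adjusted p = 0.0408). Without control replicate 1, all 6 called pairs kept their direction with differences from 1.13 to 2.80 log2 units, and their adjusted p lay at 0.0714 or 0.0952.

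**Figure D3:**
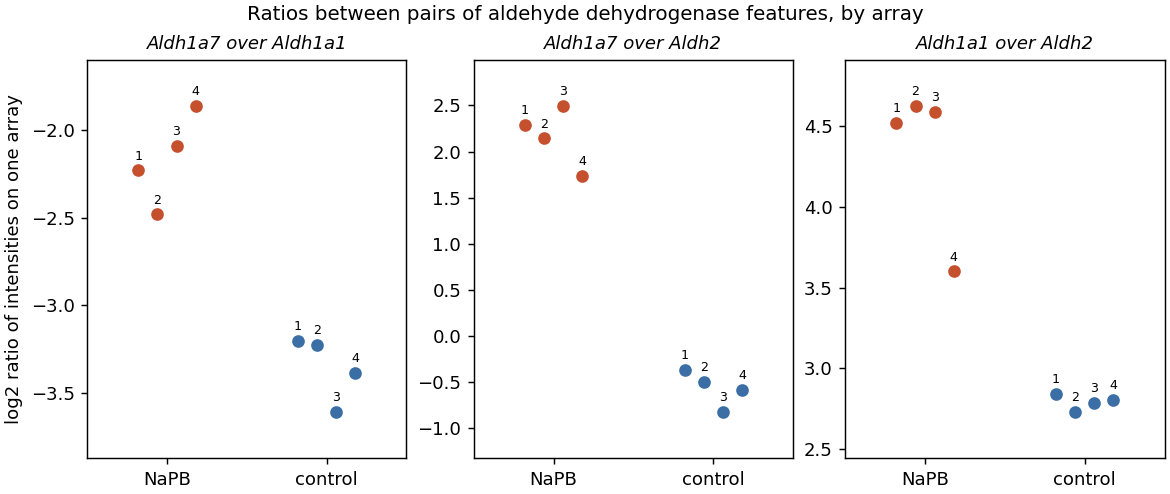
Log2 ratio of intensities on the same array for 3 pairs of genes, with NaPB arrays left (orange) and control arrays right (blue), numbered by replicate. In each panel every NaPB array lies above every control array, for Aldh1a1 over Aldh2 from 3.60 to 4.62 on the NaPB diet and from 2.73 to 2.84 on the control diet.

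The other 16 aldehyde dehydrogenase genes on the array had no member that passed limma at an adjusted p below 0.05, and 2 with an unadjusted p below 0.05, a share near the 10.1% of all genes with such a p. Of these 16 genes, 8 had a log2 fold change above 0 and 8 below 0, with a median of 0.01, the same as over all genes. Both with an unadjusted p below 0.05 were above 0. Aldh1a3, a retinaldehyde dehydrogenase best known from embryonic tissues, had intensities of 0.253, 0.468, 0.438 and 0.565 on NaPB replicates 1 to 4, against 0.0632, 0.370, 0.178 and 0.265 on control replicates 1 to 4. Its diets overlapped, control replicate 1 was at the floor, and its log2 fold change was 1.18 ± 0.51 (SE; adjusted p = 0.457, limma). Aldh3b1 had a log2 fold change of 0.76 ± 0.33 (SE; adjusted p = 0.472, limma), also with overlap. Among genes of the family known from liver metabolism, Aldh1l1, a folate enzyme of one-carbon metabolism, had a log2 fold change of 0.11 ± 0.30 and Aldh7a1, of lysine breakdown, one of −0.33 ± 0.40, which turned to 0.07 without NaPB replicate 4. Aldh3a1, known in mouse as a target of the Ah receptor, had one of 0.17 ± 0.37. These 3 were named after their values were seen. Of the 16 genes, 5 had at least 1 array at the floor. Features of the same gene differed for Aldh16a1 (0.30 and 1.26, neither passing limma) and for Aldh3b2 (−0.996 and 0.18). Aldh7a1 (−0.33 and −0.66) and Aldh6a1 (−0.63 and −0.85) had both features below 0. With every feature tested by itself, 5 of 21 had an unadjusted p below 0.05, against 3134 of all 31465 features, and none passed limma. Those of Aldh1a3, Aldh3b1 and Aldh16a1 were above 0, and those of Aldh6a1 and Aldh7a1 below.

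**Figure D4:**
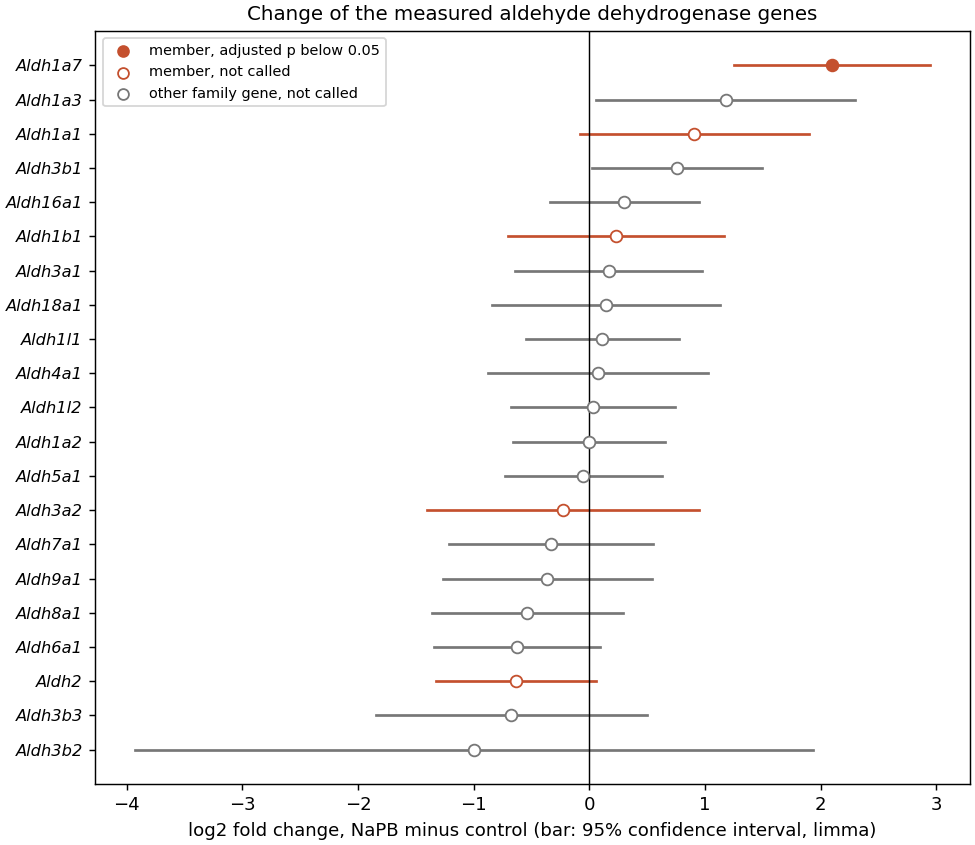
Log2 fold change (NaPB minus control) with its 95% confidence interval from limma for the 21 measured aldehyde dehydrogenase genes, the 5 described here in orange and the other 16 in grey, filled where the adjusted p was below 0.05. Aldh1a7 is the one filled point, at 2.10, and the others lie between −0.996 and 1.18.

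Genes of the pathways around these enzymes were counted in the same fit. Of 27 measured genes of retinoid binding, oxidation, storage and signalling, none passed limma and 4 had an unadjusted p below 0.05, against 10.1% of all genes. Their median log2 fold change was −0.22, with 10 above 0 and 17 below, and the median turned to 0.04 without NaPB replicate 4. Rdh16, a retinol dehydrogenase, had a log2 fold change of −0.85 ± 0.29 (adjusted p = 0.287, limma). Adh4, an alcohol dehydrogenase that also oxidizes retinol, had one of −1.33 ± 0.47 (adjusted p = 0.314, limma). They were the 2 of the 27 genes without overlap of the diets, and 4.31% of all genes were lower without overlap. Of the genes of this list known as targets of retinoic acid, the following were chosen after their values were seen. Rarb, a retinoic acid receptor, had intensities of 1.37, 1.59, 1.03 and 0.205 on NaPB replicates 1 to 4, against 0.511, 0.179, 0.207 and 0.232 on control replicates 1 to 4. Like Aldh1a1, it was above every control array on NaPB replicates 1 to 3 and not on replicate 4. Its log2 fold change was 1.68 ± 0.61 (adjusted p = 0.344, limma), and 2.35 without NaPB replicate 4, where it passed (adjusted p = 0.0245, limma); its other 2 features gave 0.14 and 0.05. Cyp26a1, which breaks down retinoic acid, had intensities of 2.05, 4.97, 3.81 and 1.31 on NaPB replicates 1 to 4, against 1.91, 0.781, 1.35 and 0.879 on control replicates 1 to 4, with overlap at NaPB replicate 4 and a log2 fold change of 1.21 ± 0.45 (adjusted p = 0.36, limma). Cyp26b1, a related enzyme, lay below 0, with a log2 fold change of −1.08 ± 0.84 and 1 NaPB array at the floor. Dhrs3, a retinaldehyde reductase, had one of −0.29 ± 0.50, which turned to 0.27 without NaPB replicate 4. Lrat and Crabp2, of the same list, lay above 0, with log2 fold changes of 0.31 and 0.25.

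Of 8 genes of ethanol, acetaldehyde and acetate handling, none passed limma, 1 had an unadjusted p below 0.05 (10.1% of all genes did), and the median log2 fold change was −0.24, which turned to 0.05 without NaPB replicate 4. That gene was Adh4, which this list shares with the retinoid genes. Its intensity was 18.6, 18.3, 12.1 and 4.29 on NaPB replicates 1 to 4, against 41.4, 19.5, 27.8 and 31.3 on control replicates 1 to 4. All NaPB arrays thus lay below all control arrays, as they did for 4.31% of all genes. Cyp2e1, the ethanol-oxidizing P450, had a log2 fold change of −0.45 ± 0.31 (adjusted p = 0.734, limma), and its other feature gave −1.17 ± 0.34 (adjusted p = 0.194, limma over features). Adh1, the main alcohol dehydrogenase of mouse liver, named after its values were seen, had one of 0.35 ± 0.54 (adjusted p = 0.891, limma), and of 0.94 ± 0.32 without NaPB replicate 4, where it did not pass either (adjusted p = 0.227, limma).

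Of 15 measured genes that make or remove lipid aldehydes, none passed limma and 2 had an unadjusted p below 0.05, against 10.1% of all genes; 10 lay above 0, with a median log2 fold change of 0.24 (0.54 without NaPB replicate 4). Aox3, an aldehyde oxidase, had intensities of 1.82, 2.71, 1.82 and 0.452 on NaPB replicates 1 to 4, against 8.42, 5.83, 6.24 and 5.72 on control replicates 1 to 4. All NaPB arrays lay below all control arrays, as they did for 4.31% of all genes. The log2 fold change of Aox3 was −2.19 ± 0.49 (adjusted p = 0.0746, limma). Without NaPB replicate 4 it was −1.64 and passed (adjusted p = 0.0248, limma). Gsta4, a glutathione transferase that conjugates 4-hydroxynonenal, had a log2 fold change of 0.70 ± 0.28 (adjusted p = 0.409, limma). Sgpl1, named after its values were seen, the lyase that releases a fatty aldehyde from sphingosine phosphate upstream of Aldh3a2, had one of 0.64 ± 0.59 and passed only in fits without NaPB replicate 4, with 1.35 where that array alone was left out (adjusted p = 0.0415, limma).

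Markers of liver cell types were summed on each array, and their counts with an unadjusted p below 0.05 are set against the 10.1% of all genes. None of the 6 hepatocyte markers was at the floor on any array. All 6 had a log2 fold change below 0, among them Alb at −1.24 ± 0.36, and none passed limma (2 with an unadjusted p below 0.05). Their summed intensity ran from 2614 to 4624 on the NaPB arrays and from 3993 to 6564 on the control arrays. Such sums mostly follow the brightest marker, here Serpina1a (mean log2 intensity on the control arrays 11.8, against 8.82 for Alb, the next). Of 6 pericentral hepatocyte markers, 5 were below 0 and none passed (4 with an unadjusted p below 0.05). Of these 4, Oat, Rhbg and Slc1a2 were below 0 and Axin2 above it (log2 fold change 0.67, and −0.09 for its other feature). Summed intensities of the pericentral markers ran from 132 to 222 on the NaPB arrays and from 154 to 324 on the control arrays. Here the brightest was Cyp2e1 (control mean log2 7.84, against 2.94 for Glul, the next). Of 5 cholangiocyte markers, 3 were above 0 and none passed, with sums from 2.66 to 4.02 on the NaPB arrays and from 1.39 to 4.05 on the control arrays. Of 5 Kupffer cell and macrophage markers, 4 were below 0 and none passed (1 with an unadjusted p below 0.05). Without overlap of the diets, 3 of the 5 were lower and 0 higher, against 4.31% and 2.72% of all genes. Summed, the 5 ran from 7.98 to 9.24 on the NaPB arrays and from 11.4 to 12.5 on the control arrays, so that these sums did not overlap. Single markers of other lists had no overlap either. Lower on the NaPB diet were 2 hepatocyte, 2 periportal, 2 pericentral and 1 stellate cell marker, and 1 pericentral marker was higher. Sums of 5 periportal hepatocyte markers ran from 241 to 458 on the NaPB arrays and from 432 to 598 on the control arrays, with 4 markers below 0 (2 with an unadjusted p below 0.05). The sums of the other lists overlapped between the diets. Of 6 stellate cell markers 4 were above 0, with sums from 3.25 to 4.35 on NaPB arrays and from 2.89 to 3.88 on control arrays. Of 5 endothelial markers 3 were above 0, with sums from 112 to 184 on NaPB arrays and from 85.9 to 179 on control arrays. Kdr made up most of these sums through a feature with a log2 fold change of 0.46, while its other features gave −0.54 to −0.17. Of 3 erythroid markers 1 was above 0, with sums from 34.1 to 73.0 on NaPB arrays and from 45.1 to 79.6 on control arrays. Of 2 lymphocyte markers 1 was above 0, with sums from 17.1 to 22.1 on NaPB arrays and from 14.0 to 26.8 on control arrays. Cd3e made up nearly all of the lymphocyte sums (control mean log2 4.09, against −0.87 for Ptprc). Stellate, endothelial and erythroid lists each had 1 marker with an unadjusted p below 0.05, lymphocyte and cholangiocyte lists 0, and no marker of any list passed limma in this fit or was at the floor on all arrays. With quantile normalization Alb, Apoa1 and the periportal Ass1 passed as lower on the NaPB diet (adjusted p = 0.0298, 0.0333 and 0.0389, limma). Both Aldh2 and the hepatocyte markers had lower means on the NaPB diet. The part of these markers in the values of the 5 genes was not tested.

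For each of the 5 genes, the genes with the most similar pattern were taken from 10364 others with a mean intensity above the median. The measure of likeness was the root mean square difference over the 8 arrays between log2 values centred on the control mean. Closest to Aldh1a7 were Prelid2 (0.24 log2 units, with a log2 fold change of 1.93), Gm6788 (0.25, with 1.80) and Gstm4, a glutathione transferase gene (0.26, with 2.42). Closest to Aldh1a1 were Timm8a1 (0.07 log2 units), Mttp (0.09) and Picalm (0.13), with log2 fold changes from 0.80 to 0.91. Aldh2 was most like Pipox, Cluh and Mtarc1, all at 0.09 log2 units and with log2 fold changes from −0.63 to −0.55. Aldh1b1 and Aldh3a2 had less close neighbours, Sparc, Dmac1 and Txndc9 at 0.25 to 0.28 log2 units, and Pxmp4, Acly and Tfpi2 at 0.23.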

How the data were processed

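The deposited table holds intensities on a linear scale, 1 per feature (62976) and array (8). Per the labels, Cy3-labelled cRNA was hybridised to one-colour Agilent arrays, and per the submitters' processing notes Agilent Feature Extraction 10.7 was used. The sources used here do not give background correction, flags, the rule of scaling or the genome build. Symbols came from the platform annotation (31465 features with 1 symbol, 31511 with none) and were brought up to date for 3282 features through RefSeq gene tables of GRCm38.p6, used for names and neighbours. Each of 20738 genes was represented by its brightest feature, as log2 of the deposited value without pseudocount, further scaling or filter. limma 3.58.1 (R 4.3.3) was fitted with diet as its only term, and it was tested on simulated data. Python 3.11.15 made the figures (matplotlib 3.10.9) and the tables (pandas 2.3.3, numpy 2.4.6). Precision is limited by the 4 arrays per diet. The ± values are limma standard errors, and an SD is that of log2 values over 4 arrays.

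The members, the gene lists, the tests and the rule for naming genes were chosen with earlier results of these data known. The rule names the 5 genes, the called genes and the 2 with the smallest p of each list, the 3 genes most like each member, and the index genes Cyp2b10 and Alb. Some listed genes were not analysed here. Whether the replicate numbers that the diets share pair the arrays is not stated in the labels. Deviations from the diet means correlated at 0.23, −0.286, 0.038 and 0.231 for numbers 1 to 4. Between arrays of different numbers the correlations ran from −0.351 to 0.374. With so few arrays these values cannot decide whether the arrays were paired.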

Additional observations from a re-analysis of the deposited data

Results flagged for a closer look

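NaPB replicate 4 lay far below the other NaPB arrays for both cytosolic genes. For Aldh1a7 the gap to the nearest of the other NaPB arrays was 0.899 of the whole range of the 4 arrays, and for Aldh1a1 it was 0.835, above Dixon's 95% critical value for 4 samples. The same array was the lowest NaPB array for Aldh1b1, Aldh2 and Aldh3a2, where the gap was 0.793, 0.696 and 0.616 of the range, below that value. No control array passed it for any of the 5 genes. Chance flags about 1 in 20 groups, and 10 groups were examined.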

How the results depend on the processing

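Of 20 alternatives, 12 left Aldh1a7 called. It was above the threshold with arrays shifted to the same median (log2 2.09, limma adjusted p = 0.0575), with a pseudocount of 1 (2.00, 0.0596) and in 6 of the 8 fits that left out 1 array. Its log2 fold change ran from 1.94 to 2.48 over those 8 fits. Over all 20 the adjusted p ran from 0.000835 to 0.119. Aldh1a1 passed with array weights (1.30), without NaPB replicate 4 (1.39) and without that array and control replicate 1 together (1.47), and had 0.70 to 1.39 with 1 array left out. Aldh1b1 had −0.03 to 0.58 with 1 array left out. Aldh3a2 turned to 0.31 with array weights, 0.33 without NaPB replicate 4 and 0.42 without both arrays, and had −0.66 to 0.33 with 1 array left out. The cause of these turns was not tested. Aldh2 kept its direction and missed the threshold in all 20.

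The replicate block changed no call of the 5 genes (Aldh1a7 limma adjusted p = 0.041). With it 135 genes were called over all genes, against 209 in the fit reported. That count was 328 (100 higher, 228 lower) with quantile normalization, 111 with arrays shifted to the same median, 812 (458 higher, 354 lower) with array weights, 88 to 365 with 1 array left out and 570 (374 higher, 196 lower) without control replicate 1 and NaPB replicate 4 together. In the fit reported 81 were higher and 128 lower.

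No other aldehyde dehydrogenase gene and no alcohol or acetate gene was called in any alternative. Retinoid genes called were 2 with array weights (Rarb and Cyp26a1), 1 without NaPB replicate 4 and 1 without both arrays (Rarb), and 0 to 1 with 1 array left out. Lipid aldehyde genes called were 1 with quantile normalization (Phyh), 1 each with the filter above the median, the variance trend and array weights (Aox3), 2 without NaPB replicate 4 and 2 without both arrays (Aox3 and Sgpl1), and 0 to 2 with 1 array left out.

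Cell type markers called, all lower on the NaPB diet, were 3 with quantile normalization (Alb, Apoa1 and Ass1), 2 with array weights (Reln and Alas2), 1 erythroid marker without control replicate 1 and without both arrays, and 1 pericentral marker without control replicate 2.

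Differences between members were recomputed with quantile normalization, with all features (1 per gene, so the same values), without NaPB replicate 4 and without control replicate 1. Without control replicate 1 the 6 called pairs missed the threshold: Aldh1a7 over Aldh1a1 (1.24, and 1.09 without NaPB replicate 4), Aldh2 (2.80, and 2.88), Aldh3a2 (2.37, and 2.15) and Aldh1b1 (1.91, and 1.90), and Aldh1a1 over Aldh2 (1.56, and 1.79) and Aldh3a2 (1.13, and 1.06). Aldh3a2 over Aldh2 passed without NaPB replicate 4 (0.73) and not without control replicate 1 (0.43). Background correction and slide could not be varied, since the table holds neither background signals nor slides.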
